A study of Homo sapiens with 6 samples.

Results

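Imprinted genes are expressed mainly from the copy inherited from 1 parent. A set of 34 of them, taken from general knowledge of imprinting, was described out of 38151 protein-coding and long noncoding genes of RefSeq. No measured value was a criterion, but the genes were chosen with earlier results of these data known. All 34 were matched in the RefSeq gene table, 33 by symbol and SLC22A18 by a synonym, and 29 are protein-coding and 5 are long noncoding RNA genes. They lie in 16 clusters or single loci on 11 chromosomes. The samples were D283 cells, an established line of Group 3 medulloblastoma, a childhood tumor of the cerebellum, grown as floating tumorspheres. In OTX2low the transcription factor OTX2 was silenced with 30 nM siRNA, and in OTX2high the cells received a non-silencing scramble siRNA, so both groups were transfected. H3K4me3, a modification found at promoters that are active or ready to be, and H3K27me3, which Polycomb complexes place on silenced chromatin, were each profiled by ChIP-seq in 1 library per condition, beside 2 IgG control libraries. D283 is 1 line from 1 tumor, and the values below compare single libraries with no replicate check.

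Imprinting is set by DNA methylation that differs between the egg and the sperm genome at imprinting control regions and is kept after fertilization by zinc finger proteins such as ZFP57 and by DNMT1. At an imprinted promoter the active allele usually carries H3K4me3, while the silent allele carries DNA methylation and, at some genes, H3K27me3. Many imprinted genes control fetal growth and brain function, and loss of imprinting at the IGF2 locus is known in childhood tumors. The reads were not separated by parental allele, so a value below sums both copies. In bulk chromatin a lower signal in all cells and a signal in fewer cells cannot be told apart, and marks that share a position can sit on different alleles or in different cells.

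Per the file headers, 33137731 and 20914582 H3K4me3 reads of OTX2high and OTX2low, and 40271458 and 33885628 H3K27me3 reads of the lists labelled OTX2high and OTX2low, entered peak calling. The headers of the H3K27me3 peak lists name the opposite condition to their sample labels, so each such list is called by its label. H3K27me3 directions follow the names given in the header of the differential table and would turn around if the sample labels held instead. All 8 Group 3 medulloblastoma markers examined had H3K4me3 peaks in both lists, among them OTX2 itself, whose log2 ratio of OTX2high over OTX2low the authors' deposited table gave as 0.82. Of 12 markers of immune, endothelial, glial, stromal, blood and epithelial cells, 6 had an H3K4me3 peak in OTX2high and 5 in OTX2low. Among all protein-coding genes 75% and 73.7% had such a peak. CD68, COL1A1, AQP4 and CDH5 had peaks in both lists, with folds over background of 30.7, 28.6, 22.6 and 17.2 in OTX2high. EPCAM had a weak peak in both lists (4.52 and 5.41), and PTPRC had a weak peak in OTX2high only (4.63). CD3E, PECAM1, GFAP, MBP, COL1A2 and HBB had none in either. A peak of this mark is no measure of expression.

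A gene was counted as marked when a peak touched its span extended by 2000 bp on each side. H3K4me3 marked 27 of the 34 imprinted genes (79.4%) in OTX2high against 25 (73.5%) in OTX2low, all 25 of them marked in both lists. Over all genes the shares were 54% in OTX2high, 51.7% in OTX2low, 51% in both and 54.7% in either list, the last against 27 imprinted genes (79.4%). Among protein-coding genes alone they were 75% and 73.7%, against 24 and 23 of the 29 protein-coding imprinted genes (82.8% and 79.3%). In the list labelled OTX2high, H3K27me3 marked 14 imprinted genes (41.2%, all genes 23.6%). The list labelled OTX2low marked 10 of those 14 (29.4%, all genes 15.8%), and all genes stood at 15% in both lists and 24.4% in either. The imprinted genes were longer than the rest, with a median span of 32782 bp against 14933 bp, and a long span is more easily touched by a peak.

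Peaks of both marks were found at 12 imprinted genes (35.3%, all genes 12.3%) in the lists labelled OTX2high. In those labelled OTX2low they were found at 8 (23.5%, all genes 8.08%). By the header names, each such pair of lists sets H3K4me3 of a condition beside H3K27me3 of the opposite condition. Marks shared within a condition are then not what these counts give. The peaks of the 2 marks overlapped each other by at least 1 bp at 7 genes in the lists labelled OTX2high, which were DLGAP2, DLK1, GNAS, KCNK9, MAGEL2, PHLDA2 and TRAPPC9. The first 5 of these had such an overlap in the lists labelled OTX2low as well. These are 20.6% and 14.7% of the imprinted genes, beside 8.1% and 4.76% of all genes. At the other genes with both marks, such as KCNQ1 and SNRPN, the peaks lay apart. The overlap at TRAPPC9 lay inside the gene at chr8:140098566-140101316, with folds of 14.2 for H3K4me3 and 4.26 for H3K27me3. PEG13, an imprinted gene of chromosome 8 outside the 34, had 1 peak of each mark in the lists labelled OTX2high, with the same folds. The strongest H3K4me3 peak of TRAPPC9 overlapped no H3K27me3 peak. H3K4me3 in both lists without any H3K27me3 peak was the state of 13 imprinted genes (38.2%, against 38.8% of all genes). H3K27me3 without H3K4me3 was seen at the neighbours H19 and IGF2 alone among the 34 (all genes 11.1%), and MEG8 and RTL1 shared 2 short H3K4me3 peaks called in OTX2high only. By the parental copy usually expressed, 15 of 20 paternally and 8 of 10 maternally expressed genes had H3K4me3 in OTX2high (all genes 54%). H3K27me3 in the list labelled OTX2high was found at 6 of the 20 and 6 of the 10 (all genes 23.6%). The maternally expressed genes with it all lie on chromosome 11p15 (H19, KCNQ1, PHLDA2 and SLC22A18) or are the chromosome 8 neighbours KCNK9 and TRAPPC9. These counts include neighbours that share a peak, and the difference was not tested.

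**Figure D1:**
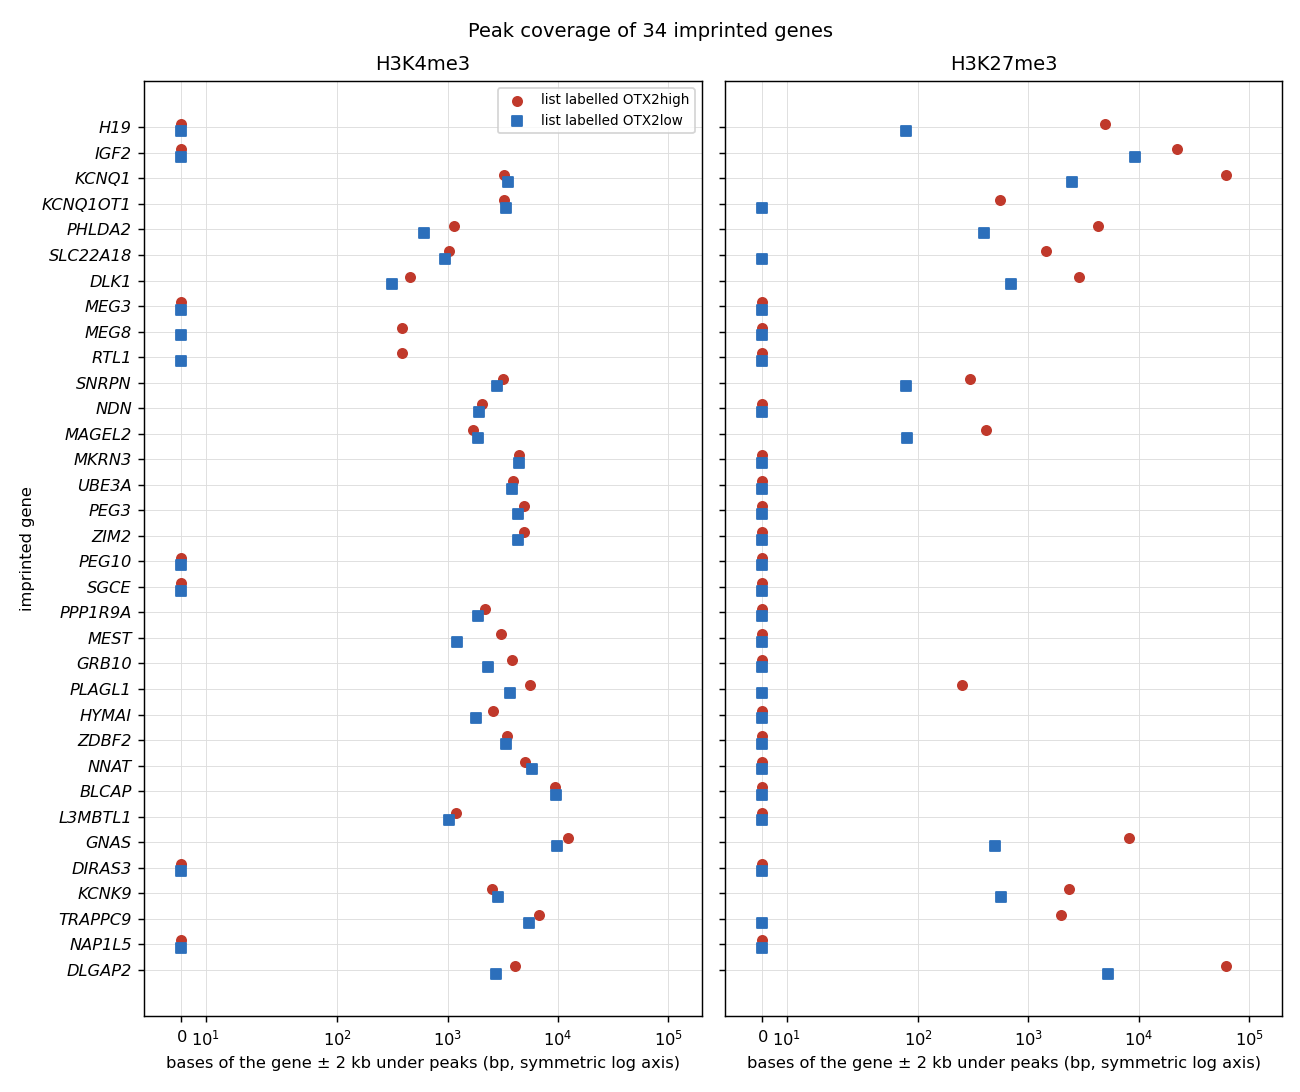
Bases of each imprinted gene and its 2000 bp flanks covered by peaks (bp, symmetric log axis) for H3K4me3 (left) and H3K27me3 (right), with circles for the lists labelled OTX2high and squares for those labelled OTX2low. H3K4me3 symbols of a gene lie close together for most genes, while H3K27me3 covers 14 genes in the list labelled OTX2high but 10 in the other.

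No peak of either mark in any list was called at MEG3, PEG10, SGCE, DIRAS3 and NAP1L5, that is, at 14.7% of the imprinted genes against 34.2% of all genes. PEG10, a gene derived from a retrotransposon, and SGCE, which encodes a sarcoglycan, share a promoter region on chromosome 7. Their nearest H3K4me3 peaks lay 142.1 and 70.7 kb away in OTX2high, both being a weak peak at CASD1 with a fold of 3.31 over background by the authors' caller. Their nearest H3K27me3 peak lay more than 1 Mb away in both lists (1082.5 and 2334.3 kb from PEG10 in the lists labelled OTX2high and OTX2low). PPP1R9A, a neuronal actin-binding gene further along the same cluster, had an H3K4me3 peak at its start with a fold of 21.7 in OTX2high and 12.9 in OTX2low. MEG3, a maternally expressed noncoding RNA, had its nearest H3K4me3 peak 43.4 kb away in OTX2high, inside MEG8 and within 2000 bp of RTL1. DIRAS3, a RAS-related growth suppressor, and NAP1L5, which lies in an intron of HERC3, had no H3K4me3 peak within 106.3 and 61.3 kb in OTX2high. An uncalled peak means that the signal did not pass a q-value of 0.05, not that the mark is absent.

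The authors' deposited differential tables list regions in which the reads of the 2 libraries differed by a G-test. Such a region of H3K4me3 touched 18 of the 34 imprinted genes (52.9%), against 38.3% of all genes. Restricted to protein-coding genes the shares were 55.2% (16 of 29) and 53.7%. All regions of a gene were higher in OTX2high at 13 imprinted genes (38.2%, all genes 29.4%) and higher in OTX2low at 2, MEG8 and MAGEL2 (5.88%, all genes 5.02%). Regions of both directions were found at NNAT, BLCAP and DLGAP2 (8.82%, all genes 3.81%). Within 2000 bp of a gene end alone, 7 imprinted genes were higher in OTX2high (20.6%, all genes 26.9%). There, 1 was higher in OTX2low (2.94%, all genes 3.12%) and 2 were mixed (5.88%, all genes 1.03%). Part of the count of 13 thus comes from regions farther inside the genes.

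Over the region with the most reads of each gene, the median log2 ratio of OTX2high over OTX2low in the authors' deposited table was 0.75 for the 18 imprinted genes and 0.54 for 14605 genes with such a region. The median over all 21714 H3K4me3 regions was 0.61. When that median was subtracted, the split of imprinted genes went from 13 higher in OTX2high, 2 higher in OTX2low and 3 mixed to 10 (29.4%), 5 (14.7%) and 3 (8.82%). The shares of all genes after the same subtraction were 12.8%, 17.4% and 8.05%. Among the imprinted genes it was MKRN3, NDN and UBE3A that turned, to log2 ratios of -0.09, -0.05 and -0.08. H3K4me3 regions at the imprinted genes numbered 24 once those shared by neighbours were counted once, 18 of them (75%) higher in OTX2high and 6 in OTX2low. The whole table of 21714 regions had 16038 (73.9%) in the first direction. Of these, 17 overlapped an H3K4me3 peak, and 7 held under 20 normalized reads in both libraries. The authors' adjusted p-values in the deposited table ran from 1.24e-09 to 0.00284 over these regions and compare 2 libraries, not the conditions.

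**Figure D2:**
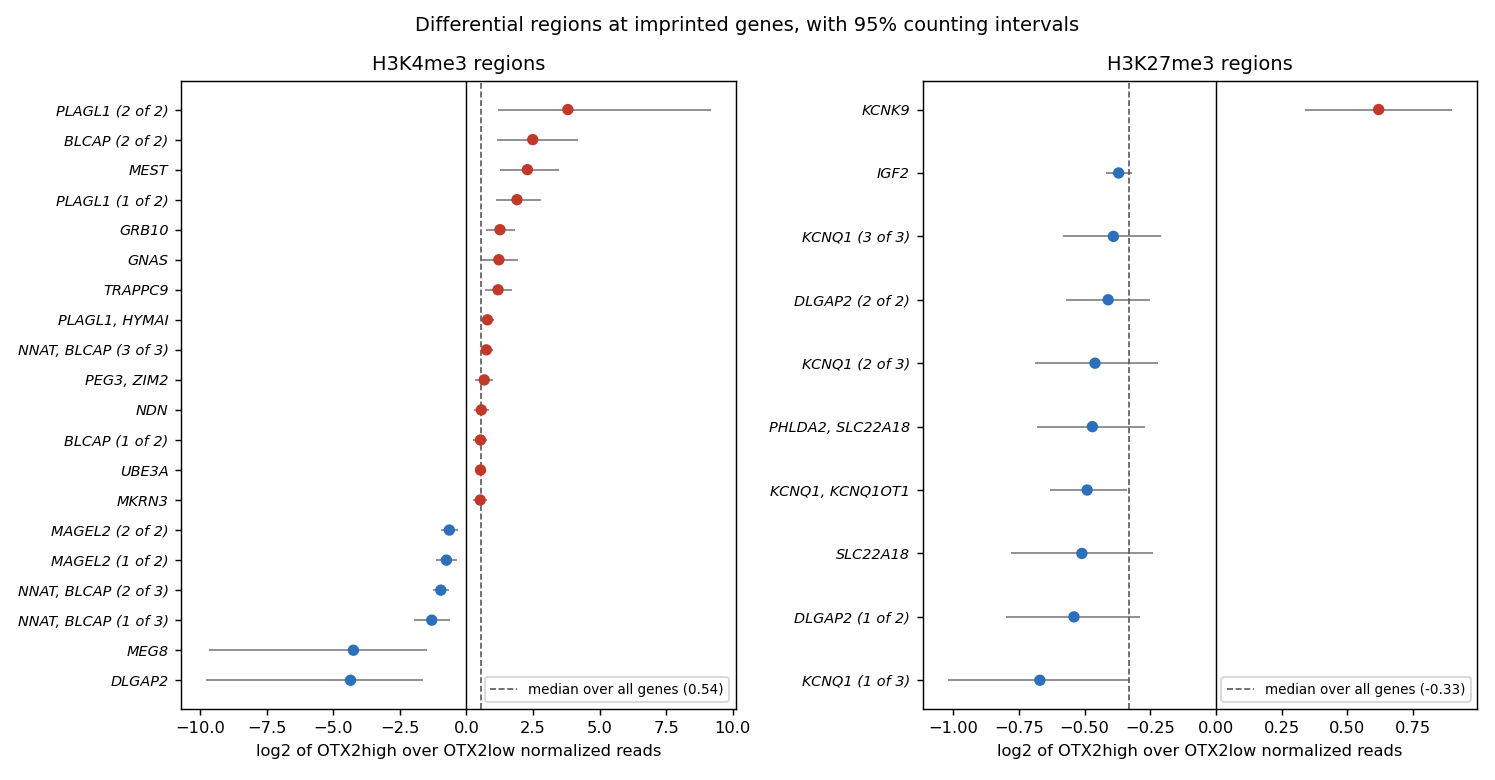
Log2 ratio of OTX2high over OTX2low normalized reads in each differential region at an imprinted gene, with 95% counting intervals, for H3K4me3 (left) and H3K27me3 (right, conditions as named in the table header). The dashed lines are the medians over all genes (0.54 and -0.33), a gene with several regions is numbered from the lowest ratio, and 4 H3K4me3 regions with 0 reads in OTX2low are not drawn. The H3K4me3 regions of MKRN3, UBE3A, NDN and PEG3 sit at or near the dashed line, MAGEL2 and 2 NNAT and BLCAP regions lie below 0, and KCNK9 is the only H3K27me3 region drawn above 0.

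The Prader-Willi and Angelman cluster on chromosome 15 held an H3K4me3 peak at each of its 5 genes in both lists. MKRN3, NDN, MAGEL2 and SNRPN are expressed from the paternal copy, and UBE3A, a ubiquitin ligase, from the maternal copy in neurons. The paternal genes did not move together. MKRN3, which encodes a ring finger protein that restrains puberty, had 311.1 normalized H3K4me3 reads in OTX2high and 216.9 in OTX2low at chr15:23564601-23565700 (GRCh38). The authors' deposited table gave it a log2 ratio of 0.52 (95% counting interval 0.26 to 0.79, adjusted p 0.00166). NDN, a necdin gene of the MAGE family expressed in neurons, had 258.5 and 175.5 reads, which the authors' deposited table lists at a log2 ratio of 0.56 (0.27 to 0.85). UBE3A had 591.9 and 411.2 reads, which the authors' deposited table lists at a log2 ratio of 0.53 (0.34 to 0.72, adjusted p 1.64e-06). All of these were higher in OTX2high by 1.43 to 1.47 times, close to the median over all genes.

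MAGEL2, another MAGE family gene, lies between MKRN3 and NDN and went the other way. Its region at chr15:23646301-23647500, within the gene, held 123.7 normalized reads in OTX2high against 193.1 in OTX2low, which the authors' deposited table lists at a log2 ratio of -0.64 (-0.97 to -0.31, adjusted p 0.00284). A second region at chr15:23647901-23649200, just upstream of its start and within its promoter window, had 89.4 and 150.4 reads, which the authors' deposited table lists at a log2 ratio of -0.75 (-1.14 to -0.37). The first region lay 1.18 log2 units below the median over all genes. Before scaling by library, its reads were 155 and 154, so its direction rests on the authors' normalization. The authors' hotspot table listed these regions as a cluster of 2, with an enrichment of 63.7 over the genome's density of differential regions. Its start also carried an H3K27me3 peak in the list labelled OTX2low, 79 bp long, and the list labelled OTX2high had one of 413 bp beside it.

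SNRPN, whose start marks the control region of this cluster, had an H3K4me3 peak at chr15:24954634-24957802 with a fold of 35.2 in OTX2high and 24.2 in OTX2low, and no differential region. Its upstream starts had no peak in either list. The promoter windows of MKRN3, UBE3A and MAGEL2, from 250 bases before to 50 after a RefSeq start, are printed because a differential H3K4me3 region crosses each. They lie at chr15:23565424-23565723 on the plus strand, and at chr15:25438180-25438479 and chr15:23647818-23648117 on the minus strand (RefSeq, GRCh38.p14). MAGEL2 was added after its values were seen, as a window with the opposite direction. Capitals are kept for TGCCGC on either strand, the core hexamer of the ZFP57 motif, which none of these windows holds.
MKRN3: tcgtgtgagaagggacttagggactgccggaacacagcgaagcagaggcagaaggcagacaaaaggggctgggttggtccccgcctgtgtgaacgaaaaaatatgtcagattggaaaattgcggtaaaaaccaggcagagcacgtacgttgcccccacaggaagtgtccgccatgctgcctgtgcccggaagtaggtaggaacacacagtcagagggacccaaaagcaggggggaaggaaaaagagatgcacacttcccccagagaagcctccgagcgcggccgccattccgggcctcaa
UBE3A: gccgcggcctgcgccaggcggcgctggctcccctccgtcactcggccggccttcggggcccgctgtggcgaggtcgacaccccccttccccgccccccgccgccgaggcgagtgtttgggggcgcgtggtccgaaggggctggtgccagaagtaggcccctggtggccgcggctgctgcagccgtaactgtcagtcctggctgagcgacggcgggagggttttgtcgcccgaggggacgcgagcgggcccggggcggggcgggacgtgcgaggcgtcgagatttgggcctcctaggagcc
MAGEL2: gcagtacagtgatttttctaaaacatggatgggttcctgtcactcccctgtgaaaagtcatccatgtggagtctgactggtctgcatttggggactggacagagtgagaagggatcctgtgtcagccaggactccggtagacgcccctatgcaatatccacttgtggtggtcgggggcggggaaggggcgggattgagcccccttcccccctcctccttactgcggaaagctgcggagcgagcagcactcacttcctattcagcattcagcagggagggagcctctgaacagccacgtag
The windows differ in CpG content, with observed over expected ratios of 0.62 for MKRN3, 0.89 for UBE3A and 0.38 for MAGEL2, and with 15, 38 and 9 CpG sites.

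NNAT and BLCAP showed differences of both directions within a few kilobases. NNAT, which encodes neuronatin, a membrane protein of developing neurons, lies in an intron of BLCAP, a gene of an apoptosis-related protein, and the H3K4me3 regions around NNAT belong to both. At chr20:37520801-37523100, which covers most of NNAT, the libraries held 454.7 and 269.5 normalized reads in OTX2high and OTX2low, which the authors' deposited table lists at a log2 ratio of 0.75 (0.53 to 0.99, adjusted p 1.24e-09). On its lower-coordinate side, chr20:37519601-37520600 had 25.5 and 62.7 reads, which the authors' deposited table lists at a log2 ratio of -1.30 (-1.98 to -0.63). On the other side, chr20:37524301-37526400 had 130.8 and 254.5 reads, which the authors' deposited table lists at a log2 ratio of -0.96 (-1.27 to -0.66, adjusted p 4.40e-08). This last region crosses an internal start of BLCAP.

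Beyond these, H3K4me3 at both ends of BLCAP was higher in OTX2high. Near the outer starts of BLCAP, chr20:37528201-37529300 had 310.3 and 215.6 reads, which the authors' deposited table lists at a log2 ratio of 0.53 (0.26 to 0.79). At the opposite end, chr20:37516401-37517600 had 35.1 and 6.27 reads, which the authors' deposited table lists at a log2 ratio of 2.49 (1.15 to 4.18). The authors' hotspot table joins the 5 regions in 1 cluster with an enrichment of 27.8 and an adjusted p of 0.000275. The highest fold of any imprinted gene's H3K4me3 peak was here in both lists, 69.9 in OTX2high and 49.5 in OTX2low. H3K27me3 had no peak within 2000 bp of either gene.

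**Figure D3:**
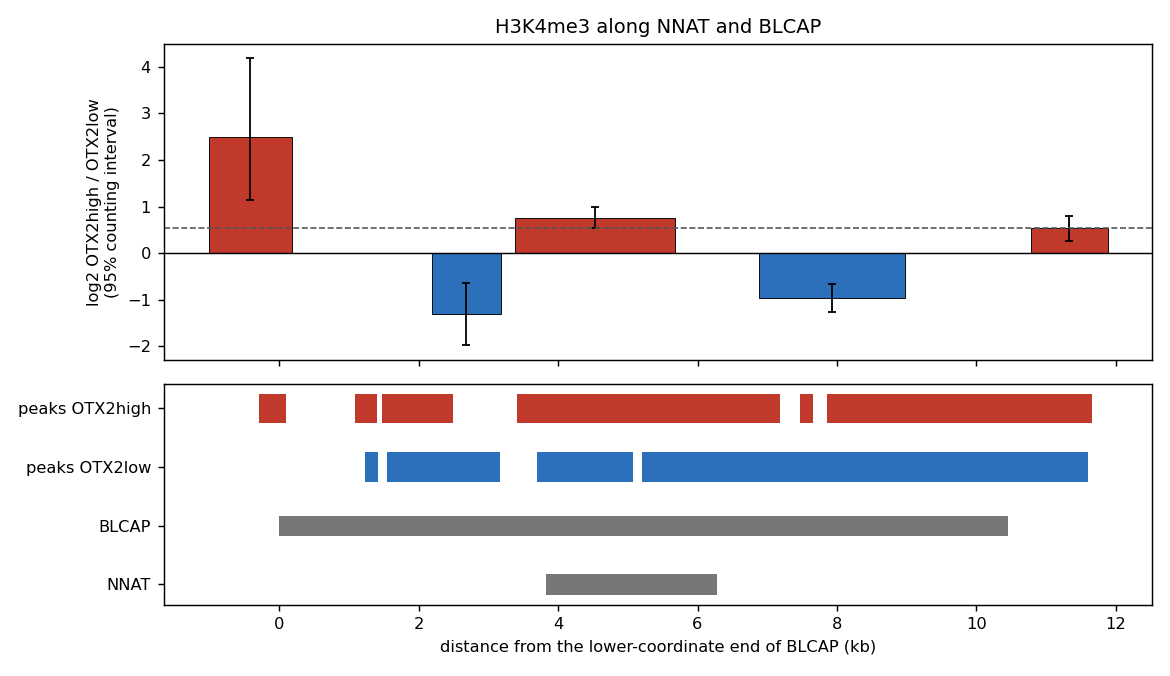
H3K4me3 along NNAT and BLCAP by distance from the lower-coordinate end of BLCAP (kb). The upper panel gives the log2 ratio of OTX2high over OTX2low of the 5 differential regions, with bars as wide as the regions, 95% counting intervals and a dashed line at the median over all genes (0.54), and the lower panel gives the peaks of each list and the genes. The ratios change sign from region to region, with 3 above 0 and 2 below.

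PLAGL1, a zinc finger transcription factor that restrains growth, and HYMAI, a noncoding RNA, are paternally expressed from a shared start. There, chr6:144005601-144008500 had 382.1 normalized H3K4me3 reads in OTX2high against 220.6 in OTX2low, which the authors' deposited table lists at a log2 ratio of 0.79 (0.54 to 1.05, adjusted p 8.74e-09). The most downstream start of PLAGL1 differed more. At chr6:143960901-143962700 the reads were 70.2 and 18.8, which the authors' deposited table lists at a log2 ratio of 1.90 (1.10 to 2.80). A peak was called there in OTX2high only, and the adjoining region had 22 reads in OTX2high and 1 in OTX2low before scaling. The upstream start of PLAGL1 carried the gene's strongest peak, with a fold of 35.6 and 37.5 in OTX2high and OTX2low, and no differential region. H3K27me3 had 1 peak of 248 bp beside PLAGL1 in the list labelled OTX2high but none in the other. The window of the shared start, at chr6:144008210-144008509 on the minus strand (RefSeq, GRCh38.p14), is shown because the region crosses it, and it holds TGCCGC once on each strand (capitals).
HYMAI: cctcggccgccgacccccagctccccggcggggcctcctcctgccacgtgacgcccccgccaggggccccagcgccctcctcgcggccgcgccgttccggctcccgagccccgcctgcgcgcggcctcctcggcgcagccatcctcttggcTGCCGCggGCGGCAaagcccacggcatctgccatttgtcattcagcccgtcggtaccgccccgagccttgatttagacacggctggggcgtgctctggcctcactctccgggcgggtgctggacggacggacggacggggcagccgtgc
The CpG observed over expected ratio of that window was 0.93, with 39 CpG sites.

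MEST, a paternally expressed hydrolase gene of the mesoderm, had H3K4me3 at its upstream starts and no peak at its downstream starts in either list. The downstream start is the one known to be imprinted. The upstream peak had a fold of 30.7 in OTX2high and 19.6 in OTX2low. Between the starts, chr7:130487401-130489200 had 55.0 normalized reads in OTX2high against 11.3 in OTX2low, which the authors' deposited table lists at a log2 ratio of 2.29 (1.28 to 3.47, adjusted p 2.98e-06). That was the highest ratio among imprinted genes' regions with the most reads, leaving aside those with 0 reads in a library. One window of each kind is shown, chosen after the values were seen, at chr7:130486097-130486396 and chr7:130491808-130492107 on the plus strand (RefSeq, GRCh38.p14), with TGCCGC on either strand in capitals. In the downstream window the match on one strand overlaps that on the other.
MEST upstream start: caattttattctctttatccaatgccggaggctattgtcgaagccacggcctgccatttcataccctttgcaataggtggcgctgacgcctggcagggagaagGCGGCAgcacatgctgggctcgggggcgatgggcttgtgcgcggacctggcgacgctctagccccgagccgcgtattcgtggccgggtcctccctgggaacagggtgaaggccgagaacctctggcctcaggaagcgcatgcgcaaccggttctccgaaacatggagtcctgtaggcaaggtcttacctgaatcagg
MEST downstream start: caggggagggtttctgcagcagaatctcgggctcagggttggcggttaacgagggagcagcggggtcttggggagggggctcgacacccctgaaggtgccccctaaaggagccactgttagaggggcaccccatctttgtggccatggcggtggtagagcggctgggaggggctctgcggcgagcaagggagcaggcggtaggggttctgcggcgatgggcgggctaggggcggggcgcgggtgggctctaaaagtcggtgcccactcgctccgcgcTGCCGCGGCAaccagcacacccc
Both windows hold 22 CpG sites, and their observed over expected ratios were 0.81 upstream and 0.66 downstream.

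GRB10, which encodes an adaptor that dampens insulin and growth factor signaling, had 117.3 and 48.9 normalized H3K4me3 reads in OTX2high and OTX2low at chr7:50790101-50792000. The authors' deposited table gave a log2 ratio of 1.26 (0.74 to 1.81, adjusted p 9.45e-06). This region lies inside the gene beside its most upstream starts, which were marked in both lists. The other 3 GRB10 starts, among them a CpG-rich one with an observed over expected ratio of 0.73, had no peak. PEG3, a zinc finger gene with a maternal-behavior phenotype in mice, and ZIM2 share their first exons and a region at chr19:56837501-56838500. It had 209.0 and 131.6 reads, which the authors' deposited table lists at a log2 ratio of 0.67 (0.34 to 1.01). ZDBF2, a paternally expressed zinc finger gene, had strong H3K4me3 peaks with folds of 43.1 and 42.1 at its starts and no differential region.

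GNAS, which encodes the alpha subunit of the stimulatory G protein and has promoters with opposite imprints, carried H3K4me3 over 12211 bp in OTX2high and 9724 bp in OTX2low. Its most upstream start had peaks of both marks in the lists labelled OTX2high, and the next start, at chr20:58841370-58841669, had H3K27me3 without H3K4me3 in the list labelled OTX2high. The next 2 windows, at chr20:58852466-58852765 and chr20:58852731-58853030, had no peak of either mark. The last starts lay under a broad H3K4me3 peak, 7968 bp long in OTX2high and 8289 bp in OTX2low. The differential region lay elsewhere, near the far end of the gene at chr20:58906401-58907500, with 67.0 and 28.8 normalized reads. The authors' deposited table listed its log2 ratio as 1.22 (0.54 to 1.95). L3MBTL1, a chromatin reader gene, was likewise marked at its upstream start and not at its inner start, which is the imprinted one. Its region at chr20:43508601-43509900 had 16.0 normalized reads in OTX2high against 0 in OTX2low, at least 4.24-fold higher against a floor of 3 reads per library, outside any peak. That floor allows for the empty library alone, and the lower 95% limit for counting error in both libraries was 1.65 on the log2 scale.

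**Figure D4:**
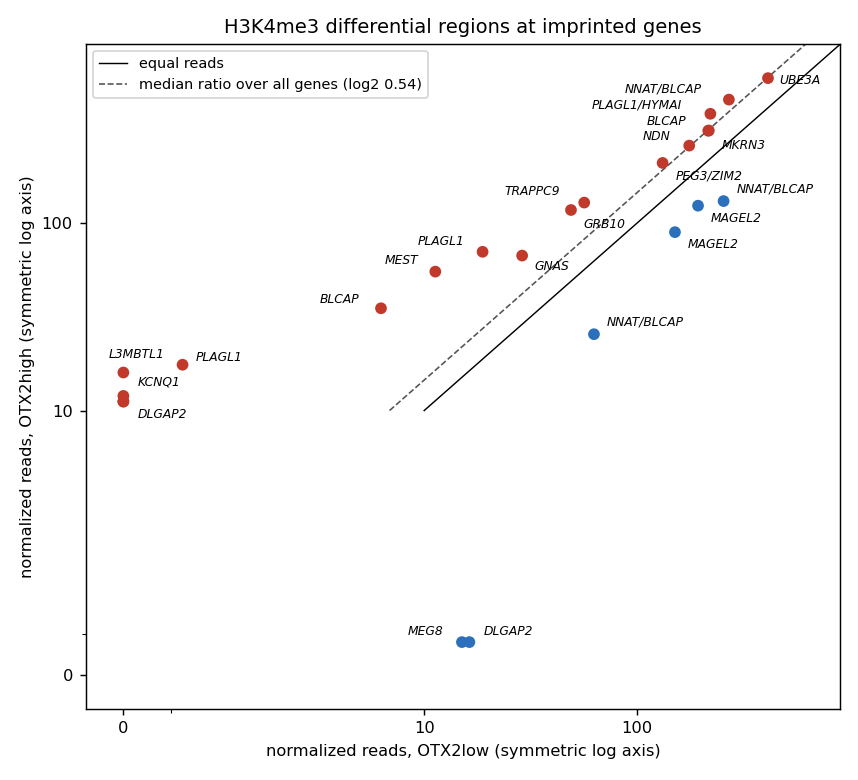
Normalized H3K4me3 reads of each differential region at an imprinted gene in OTX2low (horizontal) and OTX2high (vertical), both on symmetric log axes. Red points are higher in OTX2high and blue points in OTX2low, the solid line marks equal reads and the dashed line the median ratio over all genes (log2 0.54). The regions with over 100 reads in both libraries lie near the dashed line or, for MAGEL2 and one NNAT and BLCAP region, below the solid line, and those with 0 reads in OTX2low lie at the left edge.

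All 6 chromosome 11p15 genes had H3K27me3 peaks in the list labelled OTX2high, over shares of their extended spans from 0.58% at KCNQ1OT1 to 90.1% at IGF2. IGF2, a fetal growth factor, had H3K27me3 peaks over 90.1% of its extended span in the list labelled OTX2high against 37.9% in the one labelled OTX2low. H19, the growth-restraining noncoding RNA beside it, had 49.2% and 0.77%. The lengths of these peaks also depend on the fragment length that the caller estimated, 169 bp for the first list and 78 bp for the second. IGF2 lay in a single H3K27me3 region of 91000 bp at chr11:2102001-2193000, which also holds INS and TH. It had 5644.8 normalized reads in OTX2high against 7309.2 in OTX2low, which the authors' deposited table lists at a log2 ratio of -0.37 (-0.42 to -0.32). H19 had no differential region of either mark. The nearest H3K4me3 peak was 46.1 kb from H19, at MRPL23, and 16.7 kb from IGF2 in OTX2high.

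An H3K27me3 region touched 7 of the 34 imprinted genes (20.6%), against 9.34% of all genes and 10.7% of protein-coding genes. Of these, 6 were higher in OTX2low (17.6%, all genes 6.2%), KCNK9 alone was higher in OTX2high (2.94%, all genes 2.99%), and none was mixed (0, all genes 0.149%). Neighbours on chromosome 11p15 supplied 5 of the 6. The median log2 ratio in the authors' deposited table was -0.47 over the 7 genes and -0.33 over 3563 genes with a region, whereas it was 0.48 over all 5401 regions of the table. In all, 10 H3K27me3 regions were found at imprinted genes, 9 of them (90%) higher in OTX2low, and each overlapped an H3K27me3 peak. Of all regions listed, 3103 were higher in OTX2high and 2298 (42.5%) higher in OTX2low.

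KCNQ1, a potassium channel gene, had 4 such regions, each higher in OTX2low, and its antisense RNA KCNQ1OT1 shared the one with the most reads. At chr11:2582001-2613000 the reads were 690.6 and 969.1, which the authors' deposited table lists at a log2 ratio of -0.49 (-0.63 to -0.34, adjusted p 5.33e-10). For the other 3 the authors' deposited table listed -0.39, -0.46 and -0.67 on the log2 scale. In contrast, the start of KCNQ1OT1, inside KCNQ1, had an H3K4me3 peak at chr11:2697675-2700903 with a fold of 32.8 in OTX2high and 27.9 in OTX2low and no differential region. The only H3K4me3 region of KCNQ1, at chr11:2703001-2704000 outside any peak, had 12.0 reads in OTX2high and 0 in OTX2low, at least 3.18-fold higher against the same floor (lower 95% limit 1.19 on the log2 scale). PHLDA2, a growth-restraining gene of the placenta, and SLC22A18, a transporter gene, shared a region at chr11:2918001-2934000 with 354.4 and 492.4 reads. The authors' deposited table listed its log2 ratio as -0.47 (-0.68 to -0.27). A second region over the starts of SLC22A18 had 200.1 and 284.3 reads, which the authors' deposited table lists at a log2 ratio of -0.51. Both genes also had H3K4me3 peaks in both lists, with folds of 9.04 and 7.91 at PHLDA2 and 11.8 and 15.8 at SLC22A18.

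KCNK9 and TRAPPC9 are neighbours on chromosome 8. KCNK9, a potassium channel gene expressed in cerebellar granule neurons, had an H3K27me3 region at chr8:139691001-139702000, toward its start, with 268.7 normalized reads in OTX2high against 174.9 in OTX2low. The authors' deposited table listed its log2 ratio as 0.62 (0.34 to 0.90, adjusted p 0.00015). Peaks covered more of KCNK9 in the list labelled OTX2high, 2331 bp, than in the list labelled OTX2low, 565 bp, as at IGF2, although the ratios of these genes have opposite signs. By the condition names in the headers, peak coverage and ratio point the same way at IGF2 and opposite ways at KCNK9. KCNK9 also had an H3K4me3 peak at its start with folds of 18.4 and 15.8, overlapped by H3K27me3 in both pairs of lists, and no H3K4me3 region. TRAPPC9, a vesicle transport gene, had 128.4 and 56.4 H3K4me3 reads at chr8:140209601-140211400, inside the gene. The authors' deposited table listed its log2 ratio as 1.19 (0.70 to 1.70), while its strongest peak, at its boundary of higher coordinate, had folds of 49.1 and 47.5 and no differential region.

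DLGAP2, a gene of a postsynaptic scaffold protein, had the longest span of the set (970849 bp), and the most H3K27me3 peaks, 180 and 40 in the lists labelled OTX2high and OTX2low. Its H3K27me3 region with the most reads, at chr8:729001-746000, had 590.0 normalized reads in OTX2high against 783.7 in OTX2low, which the authors' deposited table lists at a log2 ratio of -0.41 (-0.57 to -0.25). For a second the authors' deposited table listed -0.54 on the log2 scale. A peak of each mark overlapped at the gene's start, where H3K4me3 had folds of 16.9 and 15.4. Its 3 H3K4me3 regions rest on few reads and lie outside peaks. Before scaling, one had 1 read in OTX2high and 13 in OTX2low, which the authors' deposited table lists at a log2 ratio of -4.35 with a counting interval of -9.76 to -1.62. The other 2 had 11.2 normalized reads in OTX2high against 0 in OTX2low, at least 2.97-fold higher against that floor (lower 95% limit 1.08 on the log2 scale).

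In the DLK1-MEG3 cluster on chromosome 14 the marks were sparse. DLK1, a Notch-related ligand of progenitor cells, had a weak H3K4me3 peak at its start with folds of 6.93 and 5.41, overlapped by H3K27me3 peaks with folds of 5.96 and 6.06 in the lists labelled OTX2high and OTX2low, and no differential region. RTL1, a retrotransposon-derived gene needed in the placenta, and MEG8, a noncoding RNA, shared H3K4me3 peaks of 189 and 200 bp in OTX2high. The region of MEG8, at chr14:100988701-100989800, lay elsewhere and outside any peak. It had 1 read in OTX2high and 12 in OTX2low before scaling, which the authors' deposited table lists at a log2 ratio of -4.24 with a counting interval of -9.65 to -1.48. With regions under 20 normalized reads left out, MAGEL2 was the single imprinted gene with regions higher in OTX2low alone (2.94%, all genes 3.46%).

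RefSeq promoter windows were at hand for 20 of the imprinted genes, 49 windows at 48 positions. H3K4me3 peaks of both lists touched 27 of them (55.1%), against 49.6% of 34961 windows of all genes, and 21 had no such peak. The windows with peaks in both lists had a median CpG observed over expected ratio of 0.84, and those without a peak 0.59. Over all windows these medians were 0.85 and 0.23. Unmarked windows of imprinted genes thus included CpG-rich ones, such as those of DIRAS3 (0.85), MEST (up to 0.82), MEG3 (up to 0.73) and GRB10 (0.73). Of 11 imprinted genes with more than 1 window, 6 had some marked and some unmarked in OTX2high. The same share over all genes was not computed, so it cannot be told whether this is particular to imprinted genes. TGCCGC on either strand was found in 21 windows (42.9%), against 16.8% of all windows, and in 13 of the 20 genes (65%), against 19.5% of genes. Windows of imprinted genes were also richer in G and C, with medians of 64.0% and 58.7%. The imprinted genes had more windows per gene, 49 for 20 genes against 34961 for 27195, which gives each gene more room for a match. Some of their windows overlap, as at MEG3, so the same match can be counted more than once. A match is a description of letters and no evidence of binding.

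A further list of 56 genes reported as imprinted was set beside the 34. H3K4me3 peaks were found at 41 of them (73.2%) in each list, beside 54% and 51.7% of all genes. Of the 56, 46 (82.1%) are protein-coding, and 75% and 73.7% of all protein-coding genes had such a peak. H3K4me3 regions were higher in OTX2high at 16 (28.6%, all genes 29.4%), higher in OTX2low at 8 (14.3%, all genes 5.02%) and mixed at 1 (1.79%, all genes 3.81%). Their median log2 ratio by the authors' deposited table was 0.48. CDKN1C, a cell cycle inhibitor gene, lies between KCNQ1 and SLC22A18 on chromosome 11p15. It had 181.9 normalized reads in OTX2high against 402.4 in OTX2low, which the authors' deposited table lists at a log2 ratio of -1.15 (-1.40 to -0.90). TP73, a gene of the p53 family, had 79.8 and 151.7 reads, which the authors' deposited table lists at a log2 ratio of -0.93. The other 6 genes higher in OTX2low had under 20 reads in both libraries. Of those higher in OTX2high, MESTIT1 shared the MEST region, and the authors' deposited table listed ZNF331 at a log2 ratio of 0.94. NTM, a neural adhesion gene with regions of both directions, had a ratio of 0.97 in that table. H3K27me3 was higher in OTX2low at 8 of the 56 (14.3%, all genes 6.2%), and 3 of the 8, INS, IGF2-AS and TH, share the region of IGF2. It was higher in OTX2high at none (all genes 2.99%). The others include KLF14, ASCL2 and NTM, which the authors' deposited table listed at log2 ratios of -0.52, -0.45 and -0.43.

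The 26 genes that set or keep imprints were marked by H3K4me3 in 22 cases in OTX2high and 21 in OTX2low (84.6% and 80.8%, beside 75% and 73.7% of protein-coding genes). Their regions were higher in OTX2high at 18 genes (69.2%, all genes 29.4%), mixed at 1 (3.85%, all genes 3.81%) and higher in OTX2low at none (all genes 5.02%). Any such region was found at 19 of the 26 (73.1%), against 53.7% of protein-coding genes. The regions had a median log2 ratio by the authors' deposited table of 0.56, close to the 0.54 over all genes. The largest were at TET3, an enzyme that oxidizes methylcytosine, with 1108.8 and 581.7 normalized reads listed by the authors' deposited table at a log2 ratio of 0.93 (0.78 to 1.09). EED, a subunit of the Polycomb complex that lays down H3K27me3, had 0.82 and UHRF1, a partner of DNMT1, 0.70 in that table. ZFP57 had no H3K4me3 peak in either list and 3 and 1 H3K27me3 peaks in the lists labelled OTX2high and OTX2low. DNMT3L, a cofactor of methylation in germ cells, had the list's only H3K27me3 region, listed by the authors' deposited table at a log2 ratio of -0.51.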

How the data were processed

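ChIP-seq libraries of H3K4me3 and H3K27me3 from D283 tumorspheres, 1 per mark and condition, were compared, and the 2 IgG libraries were assigned to no group because their titles and silencing labels conflict. The submitters' processing notes name GRCh38 as the build, Bowtie2 2.3.3.1 and MACS2 2.1.1.20160309. Every peak list was called on a single library with an IgG library as control and a q-value limit of 0.05, per the file headers. The authors' peak lists give a pileup signal, a -log10 p-value and q-value and a fold enrichment ratio per peak, all the authors' own values. Where folds of 2 lists are given, they were not scaled to each other, and the lists differ in read numbers and IgG control. For H3K4me3 the median peak fold was 10.54 in OTX2high and 14.15 in OTX2low. For the differential tables the authors ran diffReps 1.55.6 (version per the file headers) in windows of 1000 bp for H3K4me3 and 10000 bp for H3K27me3 and a p-value cutoff of 0.0001. The headers name hg19 for chromosome lengths, while the reads were aligned to GRCh38 per the submitters' processing notes. The deposited columns used were scaled reads (signal), a ratio of ChIP over IgG, a log2 ratio of OTX2high over OTX2low and adjusted p-values. The authors' hotspot tables count regions per cluster.

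Whole reads were recovered by dividing the deposited H3K4me3 signal by 0.7977 for OTX2high and 1.2536 for OTX2low, which gave values within 0.05 of a whole number in 98.1% and 99.9% of regions. A G-test on them called 21714 of 21714 regions, which were the authors' calls already. For H3K27me3 the shares were 90.0% and 94.0%, so its read numbers are approximate, and 5401 of 5401 regions were called. Intervals of 95% are exact conditional (Clopper-Pearson) intervals, cover counting error only and may understate it, since PCR copies are not independent molecules. They were tested on simulated data.

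Gene spans came from the RefSeq table of GRCh38.p14 and were extended by 2000 bp, and an overlap of at least 1 bp counted. The region holding the most reads gave a gene its value. Values are given for members with a differential region or with both marks, and in the other lists for the 3 largest ratios per direction and mark with at least 20 normalized reads. Promoters printed are those crossed by a gene's main H3K4me3 region, with exceptions named. The genes and lists were chosen with earlier results of these data known. Promoter windows of 14 genes were not used here. Python 3.11.15, pandas 2.3.3 and scipy 1.17.1 were used.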

Additional observations from a re-analysis of the deposited data

How the results depend on the processing

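No paired analysis was possible because each mark and condition has 1 library, and no replicate could be left out. Over the alternatives run, 92 counts stayed within 1.5 times the reported one and 10 did not. With peaks of -log10 q of at least 5, H3K27me3 in the list labelled OTX2low marked 5 imprinted genes in place of 10 (14.7%, all genes 7.91%). Both marks were then at 4 in place of 8 (11.8%, all genes 4.14%). With windows around gene ends, 7 genes in place of 13 were higher in OTX2high for H3K4me3 (20.6%, all genes 26.9%) and 1 in place of 2 higher in OTX2low (2.94%, all genes 3.12%). At an adjusted p of at most 1e-05 these became 5 and 0 (all genes 13.9% and 1.7%), and KCNK9 was lost for H3K27me3 (0 in place of 1). Subtracting the median over regions gave 5 genes higher in OTX2low for H3K4me3 (14.7%, all genes 17.4%), reversed the log2 ratios of MKRN3 (-0.09), NDN (-0.05) and UBE3A (-0.08), and moved 16 other single-gene log2 ratios beyond their counting error, among them PLAGL1 (0.79 to 0.18), NNAT (0.75 to 0.14) and, for H3K27me3, KCNK9 (0.62 to 0.14). Leaving out regions under 20 reads, or regions outside peaks, left 1 gene higher in OTX2low for H3K4me3 (2.94%, all genes 3.46% and 2.55%). Counting shared regions once and leaving out spans over 300000 bp were chosen after seeing the data and moved no count by over 1.5 times. The recomputed G-test, also chosen then, covered only regions the authors had called and called each of them. It could therefore move no count and is no check, though its counts are among the 92. Without the long spans, 4 genes in place of 6 were higher in OTX2low for H3K27me3. The share of all genes under that limit was not computed, so this count has none to be read against. Depth limits the H3K4me3 regions under 20 reads, whose counting intervals span several log2 units. The H3K27me3 directions depend on which label of those libraries is right.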
